A study of Mus musculus with 8 samples.

Results

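A set of 9 transcription factor genes that specify and maintain hepatocytes was followed in mouse liver RNA: Foxa1, Foxa2, Foxa3, Onecut1, Onecut2, Cebpa, Cebpb, Prox1 and Gata4. They were chosen by name, with earlier results of these data known, and all 9 were found among the 24940 genes of the deposited table. Polyadenylated liver RNA of 8 mice of the C57BL/6 strain, all males, was sequenced. The 4 FXRKO mice carried homozygous loss of FXR (the bile acid receptor, gene Nr1h4) in the whole body together with Bcl6(fl/fl), that is floxed but intact Bcl6. The 4 BCL6LKOFXRKO mice carried the same alleles and also Alb-Cre, a recombinase driven by the Albumin promoter that deletes Bcl6, the gene of a transcriptional repressor, in hepatocytes. Their ages are not given in the sources used here. By default the study used mice that were either fed ad libitum or fasted for 4 hours, and which of these held for each liver is not stated. Livers with intact FXR, or with Alb-Cre but no floxed Bcl6, were not analysed here, so each difference below is that of BCL6LKOFXRKO against FXRKO livers.

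FOXA factors are forkhead proteins that bind closed chromatin and open it for other factors, and ONECUT factors, HNF6 among them, carry a cut domain and a homeodomain and act in liver and bile duct development. CEBPA and CEBPB are leucine zipper factors of the metabolic and acute phase programmes of hepatocytes, PROX1 is a homeobox factor needed for the expansion of the embryonic liver, and GATA4 is a zinc finger factor of the early endoderm. These proteins bind many of the same liver enhancers and often the promoters of one another.

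The livers held between 7586241 and 11839503 counts each, and 1 count was worth between 0.0908 and 0.125 CPM. This unit is the count divided by the library total and its TMM factor, which adjusts each library to the bulk of its genes, on a common scale for all livers. Bcl6 lay between 21.2 and 65.2 CPM in FXRKO livers and between 4.61 and 11.9 CPM in BCL6LKOFXRKO livers, and FXRKO liver 3 was the lowest of its group. RNA of Nr1h4 was still counted, at 56.7 to 62.6 CPM in FXRKO livers and 39.4 to 48.1 CPM in BCL6LKOFXRKO livers (log2 fold change -0.46, edgeR adjusted p = 0.00497), and these totals over its exons do not show which of them the mutant allele lacks. Albumin alone took 4.04% to 5.16% of the counts in FXRKO livers and 11.9% to 13.2% in BCL6LKOFXRKO livers, which lowers every other gene where libraries are scaled by their totals. Of 12340 genes tested with edgeR's quasi-likelihood test, 54.5% of those called were higher in BCL6LKOFXRKO livers with TMM factors and 32.3% with total counts alone.

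All 9 factors passed the filter on low counts. Foxa1, Cebpa, Cebpb and Prox1 were lower in BCL6LKOFXRKO livers and none of the 9 was higher at an adjusted p under 0.05 over all tested genes. Over all tested genes, 13.5% were called lower and 16.2% were called higher. At an unadjusted p under 0.05, 0 factors were higher and 5 were lower, and DESeq2 and limma voom each called 0 higher and 5 lower, the fifth being Foxa2. The median log2 fold change of the 9 was -0.62, beside 0.01 over all tested genes. In the same 4 factors no BCL6LKOFXRKO liver reached the lowest FXRKO liver, while the groups did not overlap in 31.3% of all tested genes. In RNA of whole liver, fewer hepatocytes and less RNA per hepatocyte cannot be told apart.

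**Figure D1:**
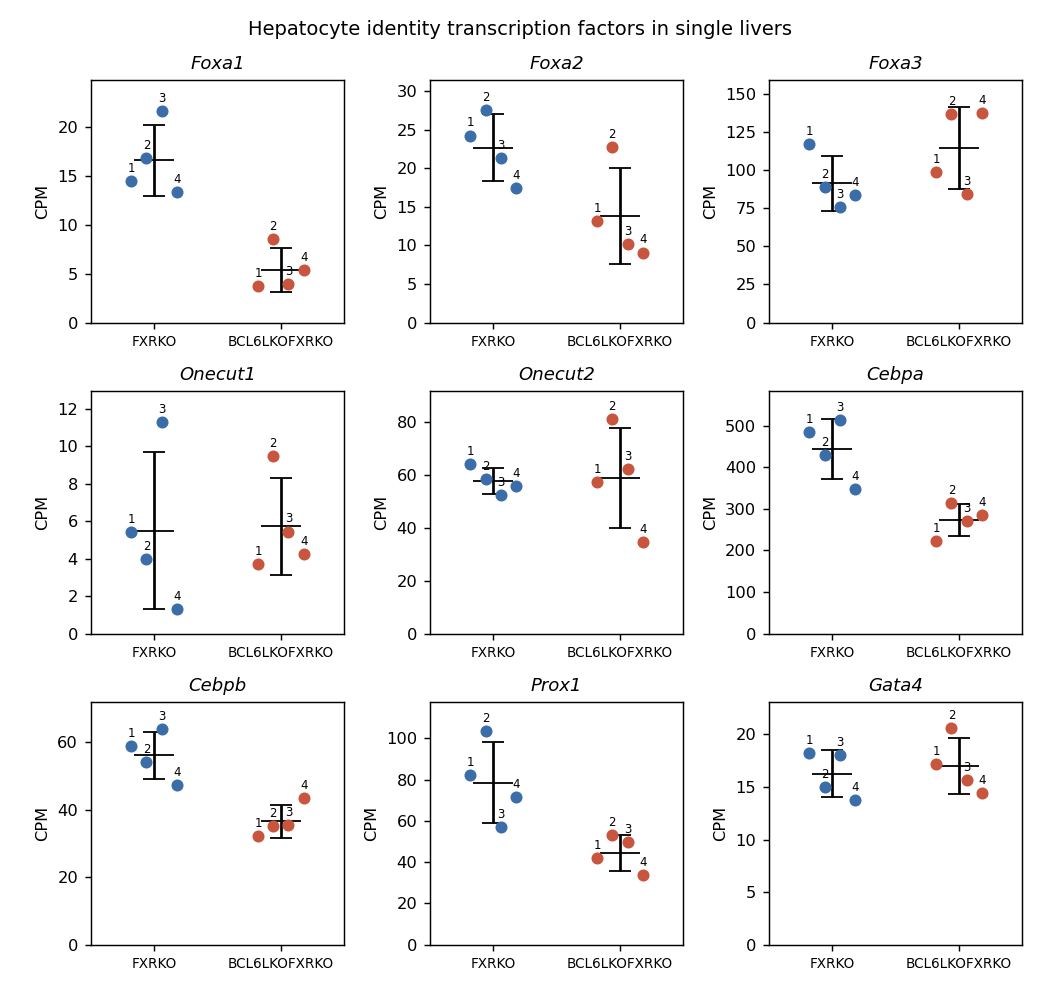
CPM of each factor (vertical axes, linear and from 0) in the 4 FXRKO and 4 BCL6LKOFXRKO livers, with liver numbers beside the points and bars for mean ± SD. The groups are apart for Foxa1, Cebpa, Cebpb and Prox1 and overlap for the other 5 factors.

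Foxa1 showed the largest difference of the 9. This gene (NM_008259, mm10 chromosome 12, 57540628 to 57546111, minus strand) encodes HNF3 alpha, a pioneer factor of endoderm and liver. It was at 14.5, 16.7, 21.6 and 13.3 CPM in FXRKO livers 1 to 4 and at 3.73, 8.49, 3.90 and 5.36 CPM in BCL6LKOFXRKO livers 1 to 4. Every BCL6LKOFXRKO liver was below every FXRKO liver, and BCL6LKOFXRKO liver 2 came nearest. The BCL6LKOFXRKO mean was 32.5% of the FXRKO mean, and the log2 fold change was -1.64 ± 0.25 (SE, edgeR adjusted p = 0.000405). The exact two-sided permutation test of mean CPM gave p = 0.0286, the smallest that 70 orderings of the livers allow. These values rest on 134 to 201 counts in FXRKO livers and 37 to 70 counts in BCL6LKOFXRKO livers.

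Foxa2 encodes HNF3 beta, which has targets in bile acid and glucose metabolism (NM_010446, chromosome 2, 148042877 to 148046969, minus strand). It was at 24.2, 27.6, 21.3 and 17.4 CPM in FXRKO livers and at 13.2, 22.8, 10.2 and 9.08 CPM in BCL6LKOFXRKO livers. Livers 1, 3 and 4 of the latter group lay below all FXRKO livers, and liver 2 lay among them. The log2 fold change was -0.72 (95% confidence interval -1.30 to -0.14, edgeR adjusted p = 0.0604). Without BCL6LKOFXRKO liver 2 it was -1.07 (edgeR adjusted p = 0.00169), and without FXRKO liver 4 it was -0.83 (edgeR adjusted p = 0.0493). The call of Foxa2 thus turned on single livers and on the tool.

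Foxa3, the gene of HNF3 gamma, is well expressed in adult liver (NM_008260, chromosome 7, 19013283 to 19023539, minus strand). It was at 117, 88.8, 76.0 and 83.4 CPM in FXRKO livers and at 98.9, 137, 84.2 and 138 CPM in BCL6LKOFXRKO livers. The groups overlapped, with BCL6LKOFXRKO livers 2 and 4 above all others. The log2 fold change of 0.32 had a 95% interval from -0.06 to 0.71 (edgeR adjusted p = 0.191).

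Within single livers the 3 Foxa genes stood in different proportions in the 2 genotypes. These ratios were set up after the values of the 3 genes had been seen and are given without a test. Per kilobase of transcript (RPKM), Foxa1 over Foxa3 was 0.121 ± 0.0441 (SD, n = 4) in FXRKO livers and 0.0296 ± 0.0072 (SD, n = 4) in BCL6LKOFXRKO livers. Foxa2 over Foxa3 was 0.241 ± 0.0499 (SD, n = 4) and 0.117 ± 0.0402 (SD, n = 4) in that order. Neither ratio depends on how the libraries were scaled, and in neither did the groups overlap. Foxa1 over Foxa2 was between 0.399 and 0.678 in FXRKO livers and between 0.189 and 0.394 in BCL6LKOFXRKO livers, so that the groups were only just apart. Of the summed RPKM of the 3 genes, Foxa1 made up 6.19% to 12.6% in FXRKO livers and 2.09% to 3.32% in BCL6LKOFXRKO livers. Foxa2 made up 15.4% to 21.0% and 5.81% to 13.3%, and Foxa3 68.9% to 78.3% and 83.4% to 91.9%. The sum itself was 60.8 ± 9.34 RPKM (SD, n = 4) in FXRKO livers and 64.4 ± 15.4 RPKM (SD, n = 4) in BCL6LKOFXRKO livers, with overlapping groups.

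**Figure D2:**
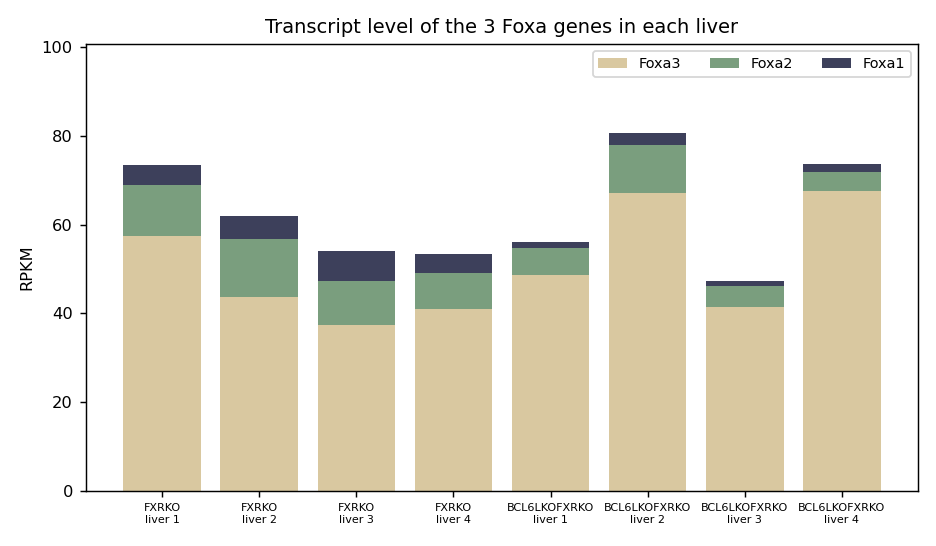
Stacked bars of the RPKM of Foxa3, Foxa2 and Foxa1 in each of the 8 livers. Foxa3 is the largest segment in every liver, and the Foxa1 segment is 2.09% to 3.32% of the bar in BCL6LKOFXRKO livers against 6.19% to 12.6% in FXRKO livers.

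The promoters of the 3 Foxa genes are shown because their RNAs differed within one family. Each runs from 250 bases before to 50 bases after the start of the counted transcript, from RefSeq on GRCm38.p6, 5′ to 3′ on the strand of the gene, with letters that matched a searched motif in capitals.
Foxa1 (chr12:57546062-57546361, minus strand): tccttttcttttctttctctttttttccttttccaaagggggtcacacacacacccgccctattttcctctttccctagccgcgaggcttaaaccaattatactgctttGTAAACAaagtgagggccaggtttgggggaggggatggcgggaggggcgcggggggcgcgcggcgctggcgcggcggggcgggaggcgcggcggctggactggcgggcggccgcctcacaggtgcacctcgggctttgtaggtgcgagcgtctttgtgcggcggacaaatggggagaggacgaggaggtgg
Foxa2 (chr2:148046920-148047219, minus strand): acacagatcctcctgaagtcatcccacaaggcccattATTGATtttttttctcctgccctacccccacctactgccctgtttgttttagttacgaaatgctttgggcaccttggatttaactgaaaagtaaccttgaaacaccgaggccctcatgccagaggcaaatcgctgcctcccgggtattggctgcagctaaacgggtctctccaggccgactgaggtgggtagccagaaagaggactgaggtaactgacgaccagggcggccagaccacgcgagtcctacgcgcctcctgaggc
Foxa3 (chr7:19023490-19023789, minus strand): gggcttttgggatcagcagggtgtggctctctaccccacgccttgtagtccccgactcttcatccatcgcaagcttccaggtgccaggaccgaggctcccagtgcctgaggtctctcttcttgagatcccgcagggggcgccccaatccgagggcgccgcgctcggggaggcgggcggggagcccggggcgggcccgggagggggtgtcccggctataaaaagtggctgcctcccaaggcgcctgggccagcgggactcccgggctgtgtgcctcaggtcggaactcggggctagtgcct
Both strands were searched for 6 short motifs, namely a FOXA core and a variant of it, a CEBP core, an ONECUT core, a GATA core and the palindrome that BCL6 shares with STAT5. The capitals in Foxa1 are the FOXA core on the opposite strand, with its first letter at -141 from the start. Those in Foxa2 are the ONECUT core on the opposite strand, at -213. The Foxa3 window held none of the 6 motifs.

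Windows of the same kind were matched for 7 of the 9 factors, all but Onecut2 and Gata4. Besides the matches in Foxa1 and Foxa2, none of the motifs occurred in the 7 windows. Among 32851 RefSeq promoters of this length, the FOXA core (TGTTTAC) was found in 3.65% and the variant of the FOXA core (TGTTTGC) in 5.07%. The CEBP core (TTGCNNAA) was found in 10.8% of them and the ONECUT core (ATCAAT) in 7.54%. The GATA core (AGATAA) was found in 11.2%, and the palindrome of BCL6 and STAT5 (TTCNNNGAA) in 8.3%. The absence of a motif says only that these letters are not in these windows. The 7 windows were rich in GC, from 54.3% in Foxa2 to 80.7% in Cebpb beside a median of 52.7% over all promoters, and held 12 to 50 CpG beside a median of 7.

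Of the ONECUT genes, neither was called. Onecut1 encodes HNF6 (NM_008262, chromosome 9, 74861921 to 74889647, plus strand). It was at 5.41, 4.0, 11.3 and 1.32 CPM in FXRKO livers and at 3.73, 9.47, 5.45 and 4.27 CPM in BCL6LKOFXRKO livers. The spread within the FXRKO group, from 14 to 105 counts, covered all BCL6LKOFXRKO livers. The log2 fold change was 0.05 with a 95% interval from -1.21 to 1.30 (edgeR adjusted p = 0.96), an interval that takes in a 2-fold difference in either direction. A noncoding gene on the same strand, Gm20649, shares 2171 bases with the annotated exons of Onecut1, and the counts of the 2 genes are uncertain.

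Onecut2, on chromosome 18 (NM_194268), encodes a related cut factor and was the steadiest of the 9 among FXRKO livers. It was at 64.2, 58.6, 52.3 and 55.9 CPM in FXRKO livers and at 57.3, 81.2, 62.3 and 34.8 CPM in BCL6LKOFXRKO livers. Both the highest and the lowest value belonged to BCL6LKOFXRKO livers, and the coefficient of variation was 8.66% in FXRKO and 32.4% in BCL6LKOFXRKO livers. The log2 fold change was 0.03 (95% interval -0.41 to 0.46, edgeR adjusted p = 0.937). Its counts are high for its level because its transcript is 13387 bases long.

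Both C/EBP genes were lower, and by like amounts. Cebpa encodes C/EBP alpha, which drives urea cycle, gluconeogenic and glycogen genes and restrains hepatocyte division (NM_001287523, chromosome 7, 35119293 to 35121928, plus strand). It was at 484, 429, 513 and 348 CPM in FXRKO livers and at 222, 313, 270 and 285 CPM in BCL6LKOFXRKO livers. The lowest FXRKO liver, liver 4, was still above the highest BCL6LKOFXRKO liver, liver 2. The BCL6LKOFXRKO mean was 61.5% of the FXRKO mean, with a log2 fold change of -0.70 ± 0.15 (SE, edgeR adjusted p = 0.00316).

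Cebpb encodes C/EBP beta, a factor induced in the acute phase response and in regeneration (NM_009883, chromosome 2, 167688915 to 167690432, plus strand). It was at 58.9, 54.2, 63.7 and 47.3 CPM in FXRKO livers and at 32.2, 35.1, 35.5 and 43.4 CPM in BCL6LKOFXRKO livers. The groups did not overlap, and the gap between FXRKO liver 4 and BCL6LKOFXRKO liver 4 was small. The mean was 65.2% of that of FXRKO livers, with a log2 fold change of -0.62 ± 0.13 (SE, edgeR adjusted p = 0.00328). In RPKM, Cebpb over Cebpa was 0.221 ± 0.0108 (SD, n = 4) in FXRKO livers and 0.235 ± 0.0309 (SD, n = 4) in BCL6LKOFXRKO livers, and the groups overlapped. Exons on the opposite strand overlap Cebpa by 51 bases (Gm45091), Cebpb by 312 bases (Tmem189) and Prox1 by 133 bases (Prox1os), and reads in these stretches could not be assigned by strand with the counting as stated.

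Prox1 encodes a homeobox factor that acts as a corepressor of nuclear receptors in hepatocytes and also marks lymphatic endothelium (NM_008937, chromosome 1, 190118035 to 190170827, minus strand). It was at 82.3, 103, 57.2 and 71.3 CPM in FXRKO livers and at 41.8, 52.9, 49.9 and 33.7 CPM in BCL6LKOFXRKO livers. FXRKO liver 3 came nearest to the BCL6LKOFXRKO group. The mean was 56.7% of that of FXRKO livers, with a log2 fold change of -0.82 ± 0.18 (SE, edgeR adjusted p = 0.00535). The part of lymphatic endothelium in the level of Prox1 was not tested. Of 4 lymphatic endothelial markers, Pdpn, Ccl21a and Mmrn1 did not pass the filter on low counts. Only Flt4 was tested, and it was higher in BCL6LKOFXRKO livers (log2 fold change 0.50, edgeR adjusted p = 0.037). The call of Flt4 was lost with limma voom, with total counts alone and with any 1 of 6 livers left out.

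Gata4 encodes a zinc finger factor of the liver and its sinusoids (NM_001310610, chromosome 14, 63198914 to 63245271, minus strand). It was at 18.2, 15.0, 18.1 and 13.7 CPM in FXRKO livers and at 17.2, 20.6, 15.7 and 14.4 CPM in BCL6LKOFXRKO livers. The groups overlapped, although BCL6LKOFXRKO liver 2 lay above all FXRKO livers and FXRKO liver 4 below all BCL6LKOFXRKO livers. The log2 fold change was 0.06 (95% interval -0.27 to 0.39, edgeR adjusted p = 0.794).

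**Figure D3:**
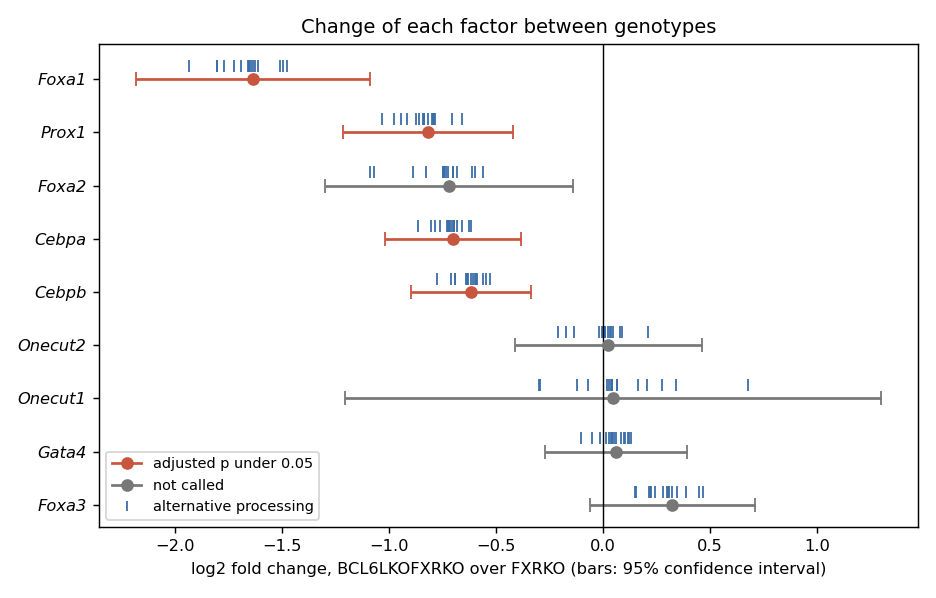
Log2 fold change of BCL6LKOFXRKO over FXRKO livers for each factor, with bars for the 95% confidence interval of edgeR's fit and blue ticks for the values with other processing or with livers left out. Foxa1, Prox1, Cebpa and Cebpb stay below 0 in every setting shown, and Onecut1, Onecut2 and Gata4 fall on both sides of 0.

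With total counts as the only scaling, the median of all genes moved by -0.16 on the log2 scale and Onecut1, Onecut2 and Gata4 turned to -0.12, -0.14 and -0.10. Relative to that shift they stayed near the middle of all genes. Single livers also stood out across factors. BCL6LKOFXRKO liver 2 was the highest of its group in 7 of the 9 factors, and FXRKO liver 4 was the lowest of its group in 6. FXRKO liver 3 was the highest in Foxa1, Onecut1, Cebpa and Cebpb and the lowest in Foxa3, Onecut2 and Prox1. Without FXRKO liver 3 and BCL6LKOFXRKO liver 2 together, an alternative added after the data were seen, 5 factors were lower and 0 higher.

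By level per transcript length, Cebpa led in both genotypes, at 168 ± 27.5 RPKM (SD, n = 4) in FXRKO livers and 104 ± 14.6 RPKM (SD, n = 4) in BCL6LKOFXRKO livers. In FXRKO livers it was followed by Foxa3 at 44.9 and Cebpb at 37.0 RPKM, whose ranges overlapped. Foxa2 at 10.7 and Prox1 at 9.79 RPKM came next and overlapped each other, followed by Foxa1 at 5.21, Gata4 at 4.78, Onecut2 at 4.32 and Onecut1 at 3.03 RPKM, each overlapping its neighbour. In BCL6LKOFXRKO livers Foxa3 at 56.2 RPKM was above Cebpb at 24.1 RPKM with no overlap. Below them Foxa2 was at 6.51, Prox1 at 5.56, Gata4 at 5.0, Onecut2 at 4.4, Onecut1 at 3.15 and Foxa1 at 1.69 RPKM, and each of these overlapped the next. Foxa1 thus moved from the sixth to the last place, although its BCL6LKOFXRKO range still overlapped that of Onecut1.

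**Figure D4:**
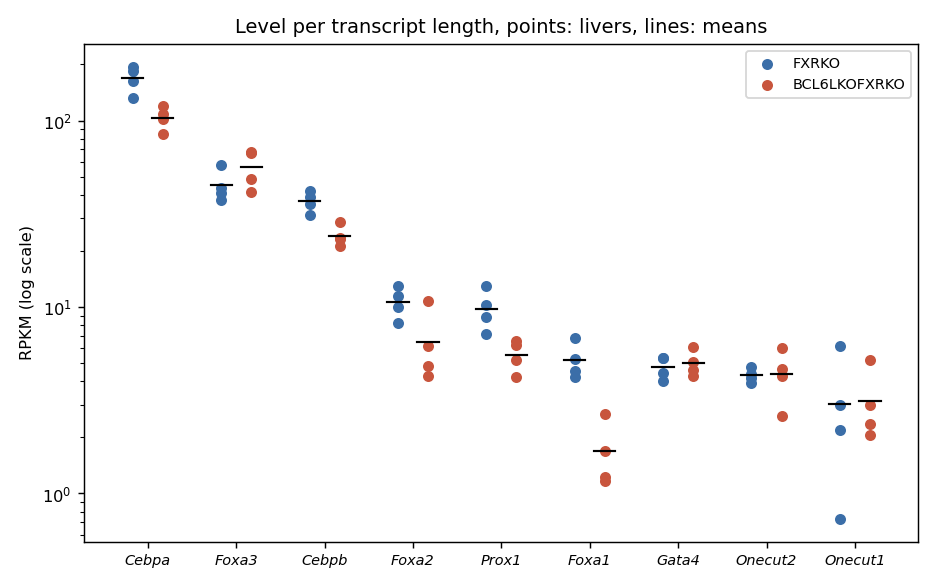
RPKM of each factor on a log axis, with 1 point per liver and a line for the mean of each genotype, ordered by the FXRKO mean. Cebpa is highest in both genotypes, and Foxa1 has the lowest mean in BCL6LKOFXRKO livers.

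The profiles over the 8 livers were compared by the root mean square difference of log2 CPM, each profile centred on its own mean. The nearest factor to Cebpa was Cebpb, at 0.13, the smallest distance among the 9. Foxa2 and Prox1 were nearest to each other at 0.31, and Onecut2 and Gata4 at 0.25. The nearest factor to Foxa1 was Cebpa, at 0.51. Among tested genes averaging 50 counts or more, Foxa1 was nearest to Ftcd (0.17) and Hopx (0.20), Cebpa to Crybg3 (0.067) and Nat8f1 (0.11), Cebpb to Ddt (0.078) and Ndufb3 (0.079), and Prox1 to Pxk (0.14) and St3gal1 (0.15). These distances describe 8 livers of 2 genotypes, and a gene that differs between the genotypes by the same amount lies near for that reason alone.

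Among 20 other transcription factors enriched in liver, 7 were lower (35%, beside 13.5% of all tested genes) and 0 higher in BCL6LKOFXRKO livers. At an unadjusted p under 0.05, 0 were higher and 10 lower, DESeq2 called 0 and 8, and limma voom 0 and 9. The median log2 fold change was -0.42, and 18 of the 20 were negative. Klf15, a factor of amino acid and glucose metabolism, was at 182 ± 28.6 CPM (SD, n = 4) in FXRKO livers and 97.3 ± 11.8 CPM (SD, n = 4) in BCL6LKOFXRKO livers (log2 fold change -0.90, edgeR adjusted p = 0.000358). Mlxipl, the gene of the carbohydrate sensor ChREBP, fell by 1.08 and Ppara, the gene of the fatty acid receptor, by 0.99 on the log2 scale (edgeR adjusted p = 0.000485 and 0.00104). Hnf4a, the nuclear receptor central to the hepatocyte programme, was at 761 ± 143 and 670 ± 104 CPM (SD, n = 4 each) with an edgeR adjusted p of 0.41. The number called lower was 12 with total counts alone and 4 without FXRKO liver 4 or BCL6LKOFXRKO liver 1.

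Among 17 paralogues and cofactors of the 9 factors, 9 were tested, 3 were higher and 2 were lower. That is 33.3% and 22.2% of those tested, beside 16.2% and 13.5% of all tested genes. The median of these paralogues and cofactors on the log2 scale was -0.14. Cux2, a cut homeobox gene related to the ONECUT genes and known for female-biased expression in mouse liver, was at 0.312, 0.375, 2.15 and 4.73 CPM in FXRKO livers and between 70.6 and 96.6 CPM in BCL6LKOFXRKO livers (log2 fold change 5.45, edgeR adjusted p = 0.000242). FXRKO livers 1 and 2 held 3 counts each. Its paralogue Cux1 fell by 0.70 on the log2 scale (edgeR adjusted p = 0.00172), and Onecut3 was at 0 in all 8 livers. Gata6, the paralogue of Gata4, was at 7.91, 5.75, 4.94 and 7.38 CPM in FXRKO livers and at 11.3, 22.5, 12.6 and 10.3 CPM in BCL6LKOFXRKO livers (log2 fold change 1.11, edgeR adjusted p = 0.00599), so the groups of Gata6 were apart where those of Gata4 overlapped. Cebpe, a C/EBP gene known from granulocytes, fell by 2.48 on the log2 scale (edgeR adjusted p = 0.00011), from 7.99 ± 0.973 to 1.38 ± 0.812 CPM (SD, n = 4 each). Ddit3, the gene of the C/EBP partner CHOP, had a log2 fold change of 0.83 (edgeR adjusted p = 0.0451).

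**Figure D5:**
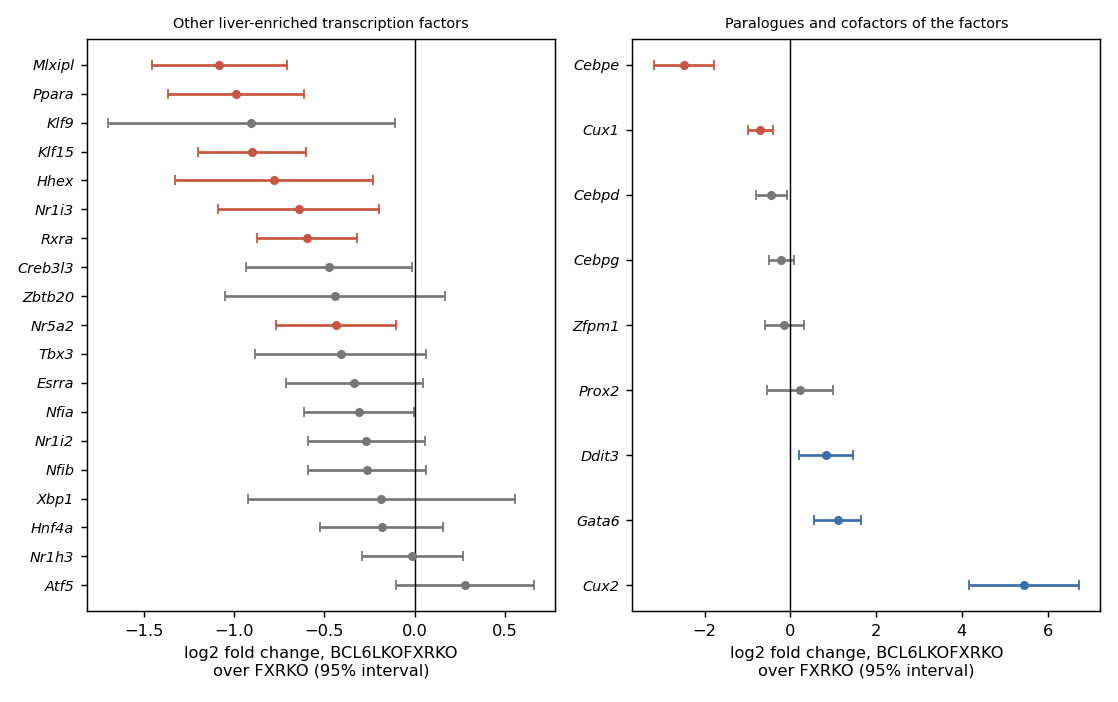
Log2 fold change with 95% confidence interval for the other liver-enriched factors (left, 1 of the 20 not drawn) and the 9 tested paralogues and cofactors (right), with red for genes called lower, blue for genes called higher and grey for those not called. In the left panel 18 factors are below 0, and in the right panel Cux2 lies at 5.45 and Cebpe at -2.48.

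Genes known as targets of these factors moved in both directions. Of 11 liver genes linked to FOXA and ONECUT factors, 4 were lower and 1 was higher. That is 36.4% and 9.09%, beside 13.5% and 16.2% of all tested genes. The median of the 11 on the log2 scale was -0.43. Tdo2, the tryptophan dioxygenase, was at 964 ± 121 CPM in FXRKO and 252 ± 42.9 CPM in BCL6LKOFXRKO livers (SD, n = 4 each), a log2 fold change of -1.93 (edgeR adjusted p = 1.08e-06). Pck1, of gluconeogenesis, fell by 1.61, Pfkfb1 by 1.02 and Ttr, the transthyretin gene, by 0.76 on the log2 scale. Alb rose by 1.60 on the log2 scale (edgeR adjusted p = 1.86e-06), against the direction of the other 4 genes called in this list. Igfbp1, which encodes an insulin-like growth factor binding protein, had a log2 fold change of 1.63 but did not pass (edgeR adjusted p = 0.0719), with 43.2 to 182 CPM in FXRKO and 138 to 479 CPM in BCL6LKOFXRKO livers. In all, 4 of the 11 had a positive and 7 a negative fold change. At an unadjusted p under 0.05, 2 were higher and 4 lower, as they were by DESeq2 and by limma voom. Of 10 urea cycle and glycogen genes linked to CEBPA, 3 were lower and 0 higher: Ugp2 (log2 fold change -0.93), Otc (-0.87) and Pck1. The share called lower was 30%, beside 13.5% of all tested genes. At an unadjusted p under 0.05, 5 of the 10 were lower and 0 higher, and DESeq2 called 5 and 0 and limma voom 4 and 0. The median log2 fold change of these 10 was -0.63.

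Of 14 acute phase genes linked to CEBPB, 2 were higher, Itih4 (log2 fold change 1.55) and Hpx (0.84), and 0 were lower, also at an unadjusted p under 0.05 and with DESeq2 and limma voom. The 14.3% called higher was not above the 16.2% of all tested genes. The median of the 14 was -0.05, and the list varied widely within each genotype. Saa1, a serum amyloid gene, was at 4049, 659, 169 and 1598 CPM in FXRKO livers 1 to 4 and at 95.9, 1053, 63.5 and 220 CPM in BCL6LKOFXRKO livers 1 to 4 (edgeR adjusted p = 0.258). Cebpb did not follow this order, since its lowest FXRKO value was in liver 4 and its highest in liver 3. Without FXRKO liver 3 and BCL6LKOFXRKO liver 2 together, 6 of the 14 were called lower. Of 6 integrated stress response genes, Atf3 (1.87) and Ddit3 were higher and 0 were lower, at an unadjusted p under 0.05 and with DESeq2 too, while limma voom called 1 higher and 0 lower, and their median was -0.05. The share called higher was 33.3%, beside 16.2% of all tested genes. No stress response gene was called without FXRKO liver 2, 3 or 4 or without BCL6LKOFXRKO liver 4.

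Of 9 transcription factors of biliary and progenitor cells, 7 were tested and only Elf3 was called, higher, with a log2 fold change of 2.21 (edgeR adjusted p = 0.0125). FXRKO liver 1 was at 2.81 CPM, above BCL6LKOFXRKO liver 3 at 2.53 CPM, and none of the list was called higher without FXRKO liver 3 and BCL6LKOFXRKO liver 2 together. The median of the 7 was 0.57, and 14.3% were called higher, beside 16.2% of all tested genes. None of the 7 was called lower, beside 1 at an unadjusted p under 0.05 and 0 with DESeq2 and limma voom. Sox9 was at 4.37 ± 2.02 CPM in FXRKO and 2.52 ± 0.697 CPM in BCL6LKOFXRKO livers (SD, n = 4 each, edgeR adjusted p = 0.0773).

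Markers of hepatocytes were present in every liver and did not move as a block. Alb, Trf and Asgr1 were higher, Ttr and Apob were lower and 3 of the 8 were not called. That is 37.5% higher and 25% lower, beside 16.2% and 13.5% of all tested genes. Their summed level was between 82632 and 88790 CPM in FXRKO livers and between 188811 and 220007 CPM in BCL6LKOFXRKO livers, mostly through Alb. Of the markers of other cells, those called were higher in BCL6LKOFXRKO livers, beside 16.2% of all tested genes called higher. For stellate cells, 6 of 8 were higher (Dcn, Pdgfrb and Reln with the smallest adjusted p), and the sum was between 201 and 283 CPM in FXRKO and between 403 and 508 CPM in BCL6LKOFXRKO livers. For cholangiocytes, 2 of 5 tested were higher (Spp1 and Krt19). Of the 5, 4 had a positive log2 fold change and Sox9 a negative one (-0.81, not called). The sums over all 8 were 43.4 to 69.4 and 76.6 to 137 CPM, mostly through Spp1 (36.6 to 53.7 and 66.2 to 123 CPM). For neutrophils 2 of 3 tested were higher (S100a9 and Csf3r; sums 5.16 to 12.3 and 13.8 to 23.1 CPM over all 6). For sinusoidal endothelium 1 of 8 was higher (Stab2; sums 187 to 255 and 242 to 317 CPM) and for macrophages 1 of 8 (Cd68; 343 to 472 and 418 to 755 CPM), a share of 12.5% in each list that is not above that of all tested genes. No cell type marker was at 0 in all 8 livers. The part of these cell markers in the lower levels of Foxa1, Cebpa, Cebpb and Prox1 was not tested.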

How the data were processed

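RNA-seq of 4 FXRKO and 4 BCL6LKOFXRKO livers was used. Groups come from the sample titles, and livers were numbered in accession order. Per the submitters' processing notes and the study's methods, single-end reads of 100 bases were placed on mm10 by STAR 2.5.2, with uniquely placed reads of at most 4 mismatches retained. The authors deposited raw counts of exonic reads from HOMER 4.10, 1 transcript for each gene, without normalization. The library kit was stranded and no strand option is stated for the counting.

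Differences were fitted with edgeR 4.0.16 in R 4.3.3 (filterByExpr, TMM, robust quasi-likelihood fit, no covariate, Benjamini-Hochberg adjustment over 12340 genes, threshold 0.05). CPM used the TMM factors, and RPKM divided them by the transcript length in the deposited table. Single genes were also tested over 70 orderings of the livers, so p cannot be under 0.0286. No library was a copy of another, with chi-square per degree of freedom of replicate pairs between 10.8 and 50.0. No source says which mice were littermates, and the edgeR p-values set the difference between genotypes against the spread between these livers. Totals limit low genes, and counting error is the only error that depth describes.

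The 9 factors and the gene lists were chosen with earlier results of these data known. Genes named were the 9 factors, Bcl6 and Nr1h4, the 3 smallest adjusted p in each direction of each list, cell markers at 0 in all livers and the nearest profiles. Hnf4a, Pfkfb1, Igfbp1, Saa1 and Sox9, the 3 low lymphatic markers and Onecut3 were named after their values were seen. One gene of the lists is counted but not reported here. Alternatives were DESeq2 1.42.0, limma 3.58.1 (voom weighting livers by quality), total counts alone, RLE size factors, normalization without the 50 most counted genes, a minimum of 10 counts in every liver, no filter, an absolute log2 fold change above 0.5 and each liver left out. The fits were tested on simulated data. Promoters were read from RefSeq on GRCm38.p6 and overlaps from GENCODE M21.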

Additional observations from a re-analysis of the deposited data

Results flagged for a closer look

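With Dixon's test at 95%, 5 of 84 groups of 4 livers held a liver apart from the others, and chance gives about 5%. None of the 18 groups of the 9 factors was among them. Mlxipl was high in BCL6LKOFXRKO liver 2 (219 CPM, the others 143 to 152; gap over range 0.875). Cebpe was low in FXRKO liver 4 (6.53 CPM, the others 8.43 to 8.5; 0.965). Elf3 was high in FXRKO liver 1 (2.81 CPM, the others 0.473 to 0.752; 0.880), as was Krt19 (2.08 CPM, the others 0.537 to 0.757; 0.858). Pdgfrb was low in FXRKO liver 3 (7.95 CPM, the others 12.2 to 12.5; 0.929).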

How the results depend on the processing

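The lower calls of Foxa1, Cebpa, Cebpb and Prox1 kept direction and threshold in all 16 alternatives, the one added after seeing the data included. The number of factors called lower was 4 or 5, and 0 were higher. Foxa2 was called with DESeq2 (adjusted p = 0.0307), limma voom (0.0227), total counts alone (0.0159) and without FXRKO liver 4 or BCL6LKOFXRKO liver 2. With each liver left out, the log2 fold change ranged from -1.93 to -1.48 for Foxa1, -1.07 to -0.56 for Foxa2, 0.22 to 0.47 for Foxa3, -0.30 to 0.68 for Onecut1, -0.17 to 0.21 for Onecut2, -0.80 to -0.61 for Cebpa, -0.71 to -0.55 for Cebpb, -0.94 to -0.66 for Prox1 and -0.050 to 0.13 for Gata4. Onecut1, Onecut2 and Gata4 changed sign with some single livers left out, as these ranges show, and with total counts alone (-0.12, -0.14 and -0.10). Onecut2 also changed sign without FXRKO liver 3 and BCL6LKOFXRKO liver 2 together (-0.21, chosen after seeing the data). All of these sign changes were far from the threshold. Total counts alone called 1404 genes higher and 2949 lower, beside 1994 and 1665. The cause was not tested.

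Counts in the lists moved by over 1.5 times in these settings. Total counts alone gave 12 lower of the other liver-enriched factors (main 7), 4 of the paralogues (2), 6 of the CEBPA-linked genes (3), 1 biliary factor and 1 cholangiocyte marker (0), and 1 stress response gene (2) and 0 lymphatic markers higher (1). DESeq2 gave 5 lower of the CEBPA-linked genes, and 2 higher of the FOXA-linked genes and of the macrophage markers (1). Limma voom gave 2 higher of the biliary factors (1) and of the FOXA-linked genes, 1 stress response gene and 0 lymphatic markers. At least 10 counts in every liver gave 1 lower paralogue, 1 lower hepatocyte marker (2), 1 higher stress response gene and cholangiocyte marker (2 each) and 2 higher sinusoidal markers (1), and no filter gave 0 stress response genes. With each liver left out, called counts ranged from 4 to 8 for the other factors (lower), 3 to 5 for CEBPA-linked genes (lower, 5 without FXRKO liver 1), 0 to 3 for acute phase genes (lower, 3 without BCL6LKOFXRKO liver 2), 1 to 3 for biliary factors (higher, 3 without FXRKO liver 1), 1 to 4 for hepatocyte markers (lower, 4 without BCL6LKOFXRKO liver 2), 1 to 3 for cholangiocyte markers and 1 to 2 for FOXA-linked genes, sinusoidal and macrophage markers (all higher). Without FXRKO liver 3, 1 biliary factor and 1 cholangiocyte marker were lower. Without it and BCL6LKOFXRKO liver 2, neutrophil markers fell to 1 called.

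No paired analysis was possible because the labels give no replicate numbers shared between the genotypes and name no litter or batch. The lowest single count among the 9 factors was that of Onecut1, with 14 to 105 counts per liver. Its livers also differed widely, with a coefficient of variation of 76.5% in FXRKO and 45.3% in BCL6LKOFXRKO livers.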
